A study of Mus musculus with 6 samples.

Results

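Axon guidance cues and their receptors were measured in RNA of whole mouse kidneys from E13.5 embryos. The members were chosen by symbol from the 22394 genes of the deposited table: class 3 to 7 semaphorins, plexins, Slits, Robos, netrins with the netrin-G genes, and the netrin receptors Dcc and Unc5. This gave 46 genes, of which 20 were semaphorins, 9 plexins, 3 Slits, 4 Robos, 5 netrins or netrin-G genes and 5 netrin receptors. The choice used names only, not measured values, but it was made with earlier results of these data known. Each group had 3 libraries. Control embryos carried 1 floxed and 1 wild-type allele of Ptch1 (Ptch1 flox/+, with no Cre named). Mutant littermates carried Foxd1Cre with 1 floxed and 1 null allele (Foxd1Cre;Ptch1 flox/-). Foxd1 marks the stromal progenitors of the kidney, so Cre acts in their lineage, and Ptch1 encodes the receptor that restrains Hedgehog signalling. Foxd1Cre and the Ptch1 null allele, which is present in every cell, differ between the groups together with the loss of Ptch1 in the stroma and cannot be told apart from it.

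Guidance molecules were named for steering growing axons, and they also shape developing kidneys and blood vessels. Class 3 semaphorins are secreted and signal through plexins, mostly with a neuropilin as co-receptor, while the other vertebrate semaphorins are bound to the membrane and can act on plexins directly. Slits are secreted ligands of the Robo receptors, and in the kidney Slit2 and Robo2 are known for limiting where the ureteric bud forms. Netrins bind Dcc and Unc5 receptors, and the netrin-G proteins, which are tethered to the membrane, bind a separate set of synaptic adhesion partners.

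Of the 43 guidance genes that could be tested, 1 was called higher and none was called lower in the mutant kidneys. The called gene was Ntng1, at 7.25 times its control level. The test was limma over all 16933 genes with a normalized count (reads divided by the authors' size factor) of at least 10 in 3 or more libraries. A call was a Benjamini-Hochberg adjusted p under 0.05. In that test 43 members were included, and the 1 called member stands beside a background of 0.307% of all genes tested (0.219% for rises and 0.0886% for falls). Unadjusted limma p-values under 0.05 were found for 9 of 43 members (20.9%), Ntng1 among them, 8 higher and 1 lower, where it was passed by 9.63% of all genes (5.26% higher and 4.37% lower). Groups did not overlap for 10 of the 43 (23.3%), 7 higher and 3 lower in mutants, against 16.7% of all genes (7.57% higher and 9.09% lower). The 3 lower ones were Sema3a, Robo1 and Dcc. The authors' deposited table called 6 members higher and 1 lower of the 42 with an adjusted p (16.7%), where it called 4.61% of all genes (3.07% higher and 1.54% lower). The median log2 fold change was 0.058 over the 43 and -0.0074 over all genes. Robo3, Ntn5 and Plxnb3 were not tested because their counts were too low. Dcc passed the count filter through its controls alone, since all its mutants were under the minimum.

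**Figure D1:**
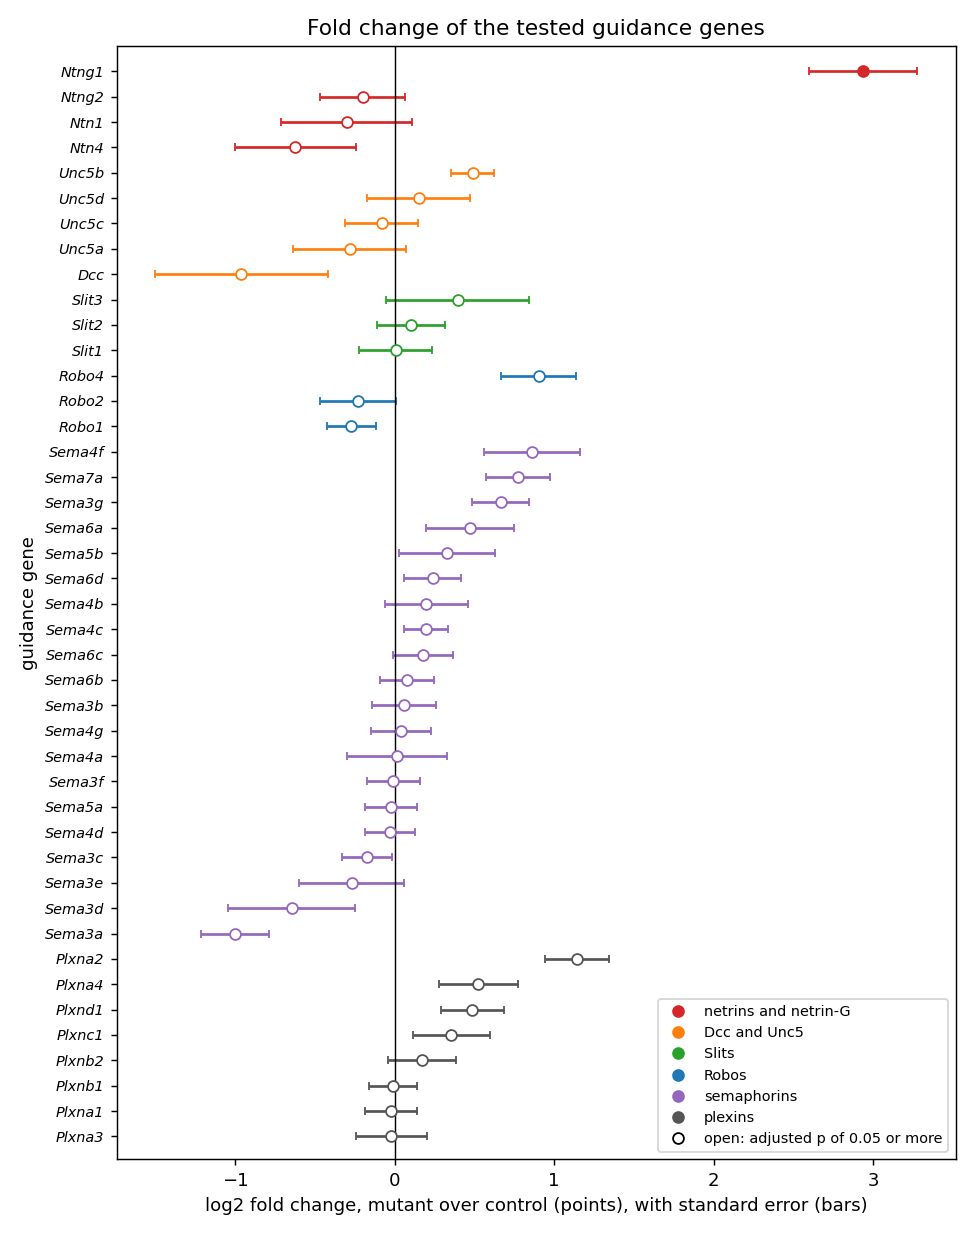
The log2 fold change of mutant over control kidneys (horizontal axis) is plotted for the 43 guidance genes tested, grouped by role, with bars for the limma standard error. The filled point is Ntng1, at 2.94, and every other point is open because its adjusted p was 0.05 or more.

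The libraries held 13261588 to 47847925 reads, the shallowest being mutant 2 and the deepest mutant 3. Kidney markers were present in all 6 libraries: the nephron progenitor genes Six2, Cited1, Eya1 and Wt1 summed to 262 to 336 FPKM (reads scaled to gene length and library depth) and the stromal genes Foxd1, Pdgfra, Pdgfrb and Meis1 to 83.2 to 169 FPKM. Within the nephron progenitor sum, Six2 and Cited1 overlapped between groups. Eya1 and Wt1 were lower in every mutant than in any control, with no call (limma adjusted p = 0.242 and 0.112). Ptch1 and the other 5 Hedgehog response genes of the list summed to 24.2 to 35.0 FPKM in controls and 106 to 118 FPKM in mutants. A value over the whole Ptch1 gene does not check the deletion. The mutant libraries came from 3 mice per the labels, and how many littermates gave the control libraries is not stated there. P-values measure the spread between these libraries. Control 2 stood apart, at 75.8 on principal component 1 (39.4% of variance) where the other libraries lay between -24.6 and 8.49, and it had the lowest stromal sum. The Y-linked gene Ddx3y was at 1525 to 1948 normalized counts in control 2 and the mutants and at 1.94 and 6.55 in controls 3 and 1, so sex was not balanced between the groups. The fold changes in the authors' deposited table followed the ratio of the mutants to controls 2 and 3 (median absolute difference 0.0152 on the log2 scale over 9792 genes with a mean above 300 normalized counts) more closely than the ratio to all 3 controls (0.083). How control 1 was weighted there is not stated in the labels. For 8 of the 43 members the sign in that table was opposite to that of limma. Most of these had limma log2 fold changes near no change. The largest were those of Ntn1 (-0.30) and Robo2 (-0.23), and Unc5c came next at -0.08.

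Among the netrins, Ntng1 encodes netrin-G1, a membrane-tethered protein of axons. The gene (ENSMUSG00000059857.15) lies on the minus strand of chromosome 3, from 109780040 to 110144011 in GRCm38, the assembly also called mm10. Its level was 0.976, 0.521 and 1.41 FPKM in controls 1 to 3 and 5.37, 8.13 and 7.53 FPKM in mutants 1 to 3. The lowest mutant was far above the highest control, so the groups did not overlap. Group means were 0.968 ± 0.442 and 7.01 ± 1.46 FPKM (SD, n = 3 each), and the log2 fold change was 2.94 (SE 0.34, limma adjusted p = 0.0147). In the authors' deposited table the log2 fold change was 3.10 with an adjusted p of 4.19e-20. The gene was read 73 to 2013 times per library. The call depended on single libraries: without control 1 the limma adjusted p was 0.0603, and without mutant 1, 2 or 3 it was 0.0631, 0.105 and 0.082, while the log2 fold change lay between 2.55 and 3.26 whichever library was left out.

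Netrin-G1 and netrin-G2 are close relatives with separate partners, and the gene of the second, Ntng2, had 2.84 ± 0.752 FPKM in the control and 2.42 ± 0.347 FPKM in the mutant kidneys, with overlapping groups (limma adjusted p = 0.781). In controls Ntng2 thus had the higher level per length of the pair, and in mutants Ntng1 had. Lrrc4c, which encodes the partner of netrin-G1, was low in both groups, at 0.335 ± 0.208 and 0.405 ± 0.115 FPKM (limma adjusted p = 0.755).

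The secreted netrin gene Ntn1 had the highest level of its class and did not separate the groups. It was at 59.0, 19.9 and 52.5 FPKM in controls 1 to 3 and at 21.6, 35.4 and 43.3 FPKM in mutants 1 to 3. Control 2 and mutant 1 were the low libraries, 1 in each group. The log2 fold change was -0.30 (SE 0.41, limma adjusted p = 0.789), and it was 0.17 in the authors' deposited table. Ntn4, a netrin of basement membranes, was at 0.755 ± 0.353 and 0.465 ± 0.13 FPKM and did not pass (limma adjusted p = 0.596). Ntn5 was listed at 0.0714 to 0.204 FPKM, from 3 to 9 reads per library.

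The netrin receptors differed mainly in level. Unc5c, a receptor that mediates repulsion from netrin, was the highest at 16.1, 8.53 and 14.7 FPKM in controls and 10.6, 12.6 and 12.6 FPKM in mutants. All 3 mutants lay inside the control range (log2 difference -0.08 with SE 0.23, adjusted p = 0.902 by limma). Unc5b, the Unc5 receptor best known from endothelial cells, was at 7.38, 9.20 and 6.88 FPKM in controls and at 11.0, 11.2 and 10.5 FPKM in mutants. Every mutant was above every control, but the difference did not pass over all genes (log2 difference 0.49 with SE 0.14, unadjusted p = 0.00667 and adjusted p = 0.306 by limma). Unc5a and Unc5d were below 0.5 FPKM in each library. Dcc, the attractive netrin receptor, was at 0.0175 to 0.101 FPKM from 2 to 14 reads per library.

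Slits and the Robos of the urinary tract were expressed at moderate levels with no call. The ligand gene Slit3 was at 10.3, 4.17 and 12.0 FPKM in controls and 6.33, 10.6 and 17.5 FPKM in mutants. Control 2 and mutant 1 were again the low libraries, and the groups overlapped (log2 difference 0.39 with SE 0.45, adjusted p = 0.746 by limma). The authors' deposited table called it higher (log2 fold change 0.80, adjusted p = 0.028), and without control 2 the limma log2 fold change was -0.08. Slit2 was at 8.37 ± 1.91 and 8.94 ± 1.86 FPKM and Slit1 at 2.25 ± 0.468 and 2.26 ± 0.524 FPKM.

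Robo2, the receptor of Slit2 in kidney induction, was at 28.3, 13.6 and 19.6 FPKM in controls and 15.4, 16.6 and 18.2 FPKM in mutants. The mutants lay within the control range, and their spread was narrower (log2 difference -0.23 with SE 0.24, adjusted p = 0.716 by limma). Robo1, another Slit receptor, was at 9.32, 8.79 and 8.97 FPKM in controls and 5.97, 7.95 and 8.74 FPKM in mutants. All mutants were below all controls, mutant 3 by a small margin, and the difference did not pass (log2 difference -0.27 with SE 0.15, adjusted p = 0.579 by limma).

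Robo4, the Robo of blood vessel endothelium, was higher in mutants, unlike Robo1 and Robo2, but did not pass. It was at 3.73, 2.11 and 3.20 FPKM in controls and 4.46, 5.69 and 6.50 FPKM in mutants. The groups did not overlap, and control 2 was the lowest library. The log2 fold change was 0.90 (SE 0.24, limma unadjusted p = 0.00461, adjusted p = 0.258), and the authors' deposited table called it higher (log2 fold change 1.16, adjusted p = 0.000148). Robo3 had 3 to 7 reads per library, at 0.0209 to 0.0638 FPKM.

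Among the secreted semaphorins, Sema3a, a repellent of axons and of endothelial cells, was at 6.98, 5.90 and 8.46 FPKM in controls and 3.21, 2.86 and 4.70 FPKM in mutants. Every mutant was below every control, and the control mean was 1.98 times the mutant mean (7.11 ± 1.28 and 3.59 ± 0.979 FPKM). The log2 fold change was -1.001 (SE 0.21, limma unadjusted p = 0.00136), and it did not pass over all genes (limma adjusted p = 0.136). It did pass without control 2 (limma adjusted p = 0.0484) and did not when any other library was left out (0.136 to 0.511). The authors' deposited table called it lower (log2 fold change -0.91, adjusted p = 0.00096).

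Sema3a lies on the plus strand of chromosome 5 from 13125414 to 13602565 in GRCm38, between Sema3d (12383385 to 12588948) and Sema3e (14025276 to 14256689), both on the same strand. Sema3d, chosen for description after its values were seen, was at 17.8, 6.17 and 17.2 FPKM in controls and 6.33, 7.02 and 11.1 FPKM in mutants. Controls 1 and 3 were above all mutants and control 2 was below them. The limma adjusted p was 0.601 with all libraries and 0.0484 without control 2, where the log2 fold change went from -0.65 to -1.15. Without control 1 or control 3 the log2 fold change was -0.38 and -0.41 (limma adjusted p = 0.659 and 0.803), and with a term for sex it was 0.36, the opposite sign. Sema3e was at 0.367 ± 0.117 and 0.299 ± 0.0683 FPKM, with overlapping groups.

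Of the other class 3 members, Sema3f, a ligand that signals through neuropilin 2, had the highest level of the 20 semaphorins, at 43.3, 34.2 and 32.1 FPKM in controls and 43.2, 30.7 and 35.1 FPKM in mutants. The groups covered nearly the same range (log2 difference -0.01 with SE 0.17, adjusted p = 0.985 by limma). Sema3c, which acts in vessel and heart outflow patterning, was at 18.4 ± 3.33 and 16.1 ± 1.22 FPKM, and Sema3b at 3.49 ± 0.4 and 3.68 ± 0.83 FPKM. Sema3g, known from arterial endothelium, was at 1.19, 1.44 and 1.42 FPKM in controls and 2.00, 2.27 and 2.14 FPKM in mutants. Its groups did not overlap, but it did not pass (log2 difference 0.66 with SE 0.18, unadjusted p = 0.00574 and adjusted p = 0.286 by limma).

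Of the membrane-bound semaphorins, Sema7a and Sema4f had groups that did not overlap. Sema7a, a lipid-anchored semaphorin that also binds integrins, was at 1.54, 1.62 and 1.48 FPKM in controls and 2.96, 2.20 and 2.87 FPKM in mutants. Controls lay close together and each mutant stood above them (log2 difference 0.77 with SE 0.20, unadjusted p = 0.00417 and adjusted p = 0.249 by limma). Sema4f was at 1.04, 0.595 and 1.02 FPKM in controls and 1.18, 1.92 and 1.69 FPKM in mutants (log2 difference 0.86 with SE 0.30, adjusted p = 0.44 by limma). Mutant 1 was only just above control 1.

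Sema6a, a transmembrane ligand of the plexin A proteins, was at 12.8, 6.87 and 13.2 FPKM in controls and 11.2, 14.9 and 18.5 FPKM in mutants. The groups overlapped because mutant 1 lay below controls 1 and 3 (log2 difference 0.47 with SE 0.27, adjusted p = 0.583 by limma). The authors' deposited table called it higher (log2 fold change 0.73, adjusted p = 0.013), and without control 2 the limma log2 fold change was 0.17. The remaining 10 membrane-bound semaphorins had overlapping groups, with limma adjusted p of 0.629 or more. Sema4c was the highest of them, at 17.8 ± 2.52 and 20.3 ± 1.53 FPKM, and Sema5b the lowest in controls, at 1.34 ± 0.278 and 1.74 ± 0.618 FPKM.

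Plexins are the receptors of these ligands, and Plxna2 came nearest to a call after Ntng1. Plxna2 (ENSMUSG00000026640.12, chromosome 1, plus strand, 194618218 to 194816869 in GRCm38) serves class 3 and class 6 semaphorins. Its level was 2.33, 1.60 and 2.31 FPKM in controls and 3.60, 5.15 and 5.02 FPKM in mutants. The mutant mean was 2.21 times the control mean, with no overlap. The log2 fold change was 1.14 (SE 0.20, limma unadjusted p = 0.000387), and the limma adjusted p was 0.0797 with all libraries, 0.0407 without control 2 and 0.113 to 0.337 when any other library was left out. The authors' deposited table called it higher (log2 fold change 1.30, adjusted p = 3.19e-06).

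Plxnd1, the plexin of endothelial cells and a receptor of Sema3e, was at 22.0, 31.0 and 22.8 FPKM in controls and 27.4, 37.0 and 42.3 FPKM in mutants. Mutant 1 lay below control 2, so the groups overlapped (log2 difference 0.49 with SE 0.20, unadjusted p = 0.0373 and adjusted p = 0.49 by limma). Plxna4, a receptor that mediates repulsion by Sema3a, was at 1.39, 0.681 and 0.888 FPKM in controls and 1.29, 1.45 and 1.35 FPKM in mutants. It overlapped through control 1 (log2 difference 0.52 with SE 0.25, adjusted p = 0.542 by limma). The authors' deposited table called it higher (log2 fold change 0.83, adjusted p = 0.0319), and the limma log2 fold change was 0.80 without control 1 and 0.29 without control 2.

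Plxnb2, a receptor of class 4 semaphorins, had the highest level of all 46 genes, at 70.1, 39.2 and 59.1 FPKM in controls and 56.5, 58.6 and 69.8 FPKM in mutants. The mutants lay inside the control range (log2 difference 0.17 with SE 0.21, adjusted p = 0.77 by limma). Plxna1 (13.7 ± 2.08 and 13.6 ± 2.26 FPKM), Plxna3 (7.25 ± 2.32 and 6.90 ± 0.509 FPKM), Plxnb1 (10.5 ± 1.93 and 10.3 ± 0.11 FPKM) and Plxnc1 (2.22 ± 0.464 and 2.87 ± 0.772 FPKM) overlapped between groups. Plxnb3 was listed at 0.00737 to 0.0841 FPKM.

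**Figure D2:**
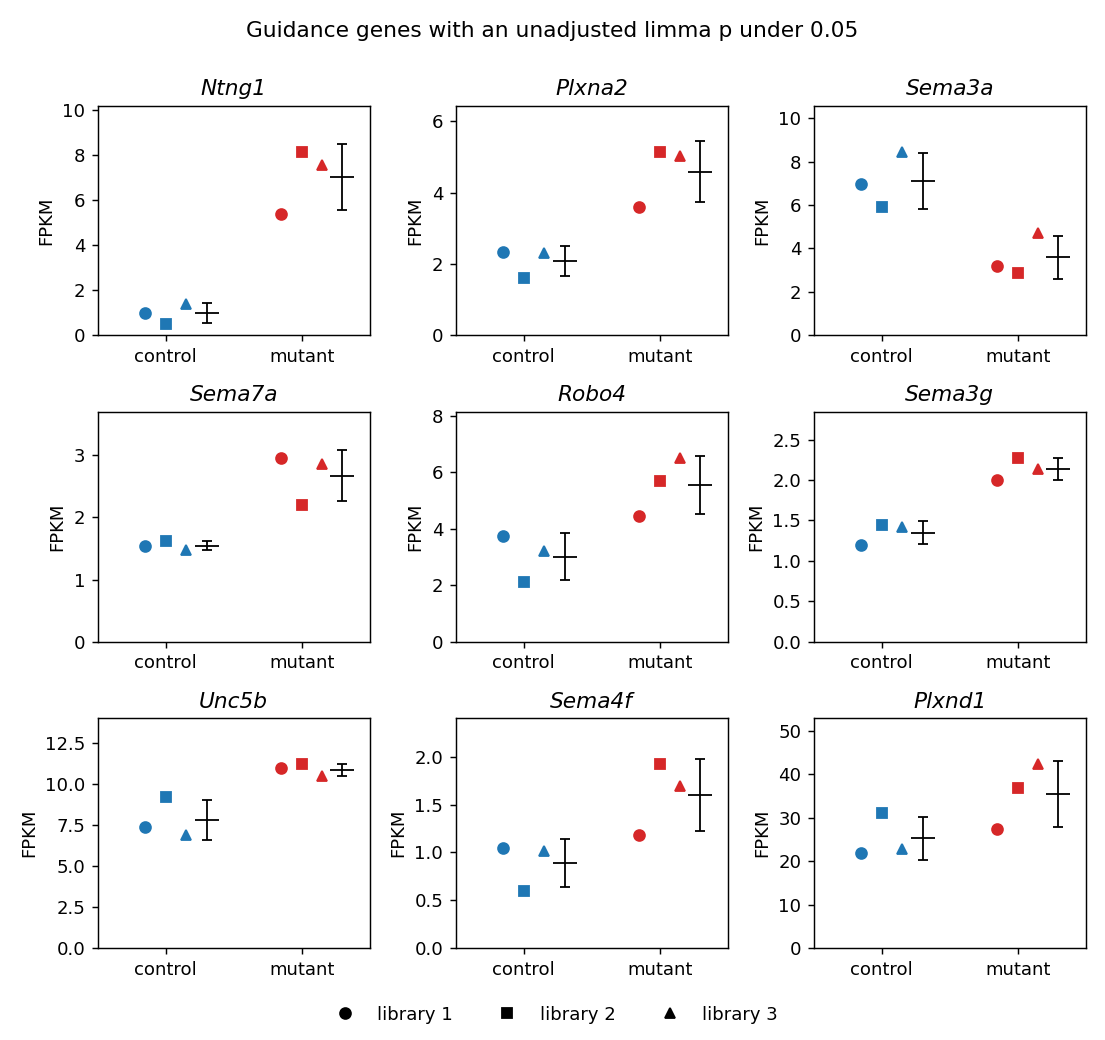
FPKM in each library is shown for the 9 guidance genes with an unadjusted limma p under 0.05, controls in blue and mutants in red, with the mean and SD of the 3 libraries beside the points. Sema3a alone is lower in the mutants, and Plxnd1 alone has overlapping groups.

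Several of the higher members are genes of blood vessels, so endothelial markers were read beside them. The 10 markers (Pecam1, Cdh5, Kdr, Tie1, Tek, Emcn, Esam, Cldn5, Erg and Sox17) summed to 117 to 126 FPKM in controls and 214 to 270 FPKM in mutants. In limma 4 of the 10 were called higher and all 10 had positive fold changes. The markers did not rise equally, with log2 fold changes from 0.33 (Sox17) and 0.39 (Erg) to 1.31 (Emcn). Groups overlapped for Tek, Erg and Sox17, so ratios to the sum depend on the markers chosen. In whole kidneys, more endothelial cells and more RNA per endothelial cell cannot be told apart. Per 100 FPKM of that sum, Robo4 was at 1.80 to 3.08 in controls and 2.09 to 2.52 in mutants, within the control range. Plxnd1 was at 18.1 to 26.5 and 12.8 to 16.4 and Unc5b at 5.46 to 7.86 and 3.88 to 5.13, so on this scale every mutant lay below every control for both genes. Sema3g was at 0.982 to 1.23 and 0.792 to 1.01, with overlap. Sema7a (1.18 to 1.39 and 0.976 to 1.38), Plxna2 (1.36 to 1.92 and 1.68 to 2.28) and Sema4f (0.509 to 0.860 and 0.553 to 0.852) overlapped as well. Ntng1 did not follow the sum, being at 0.445 to 1.12 in controls and 2.51 to 3.61 in mutants. The part of endothelial content in the differences described above was not tested.

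**Figure D3:**
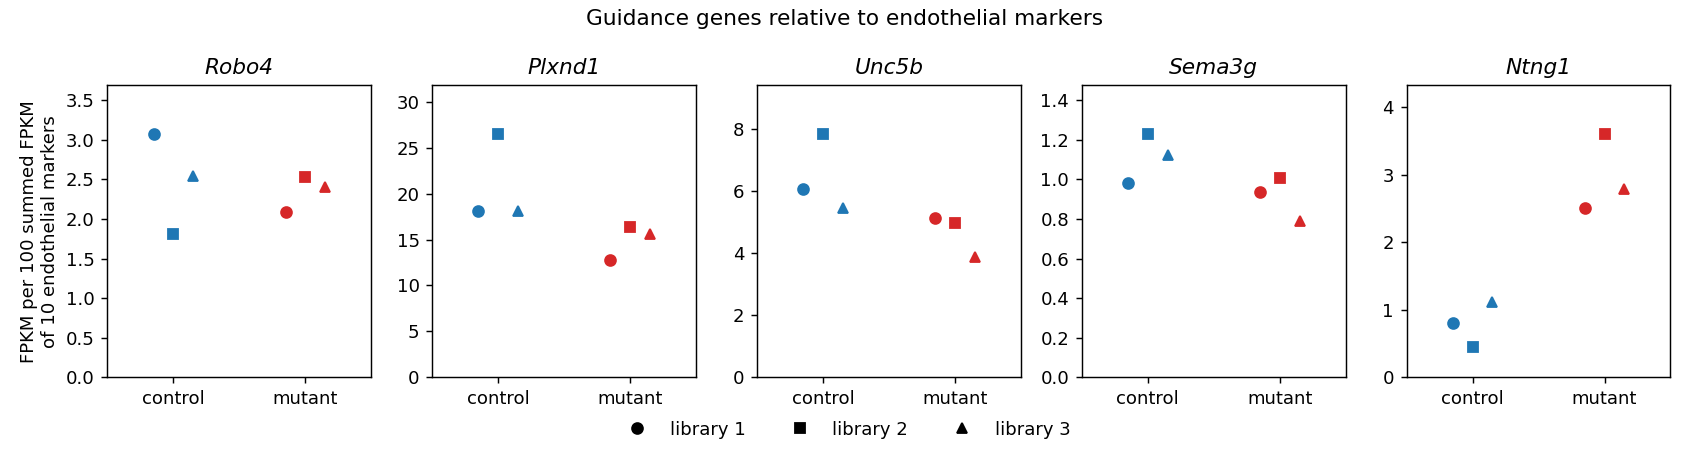
FPKM per 100 summed FPKM of the 10 endothelial markers is shown by library for 5 guidance genes, controls in blue and mutants in red. Robo4 and Sema3g overlap between groups, Plxnd1 and Unc5b are lower in the mutants on this scale, and Ntng1 is higher in all 3 mutants.

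Guidance genes are also abundant in nerves, and kidney samples can include neural tissue. The 8 neural and chromaffin markers used (Th, Chga, Dbh, Elavl4, Stmn2, Tubb3, Sox10 and Prph) summed to 9.04, 6.89 and 11.5 FPKM in controls 1 to 3 and to 11.8, 8.13 and 23.9 FPKM in mutants 1 to 3. Limma called none of the 8, and for 4 of them, all higher, the unadjusted p was under 0.05. Within the controls Ntng1 had the same order as this sum, lowest in control 2 and highest in control 3, and within the mutants it was highest where the sum was lowest, in mutant 2. Skeletal muscle markers were lower in mutants, and 4 of the 6 were called lower. They summed to 27.4 to 51.2 FPKM in controls and 4.19 to 6.78 FPKM in mutants. The 4 smooth muscle markers (Acta2, Tagln, Myh11 and Cnn1) went the other way, with positive fold changes and no limma call. Their sums overlapped, at 12.5 to 39.4 FPKM in controls and 34.9 to 73.9 FPKM in mutants. The part of neural and muscle tissue in the differences above was not tested.

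Variation between libraries of 1 group was large for many members. Control 2 was the lowest of the 6 libraries for 21 of the 43 members tested (48.8%), compared with 28.0% of all genes, and mutant 3 was the lowest for none. Ntn1, Sema3d, Slit3, Sema6a, Robo2, Unc5c and Plxnb2 were all lowest in control 2. Mutant 1 was the lowest mutant for each of these 7 genes, with 21.6 FPKM of Ntn1 and 6.33 FPKM each of Sema3d and Slit3. The 7 are part of the 21 lowest in control 2. Of the 21, only Sema3c (14.7 FPKM), Sema4g (7.01 FPKM) and Sema4b (5.07 FPKM) had mutant 2 as their lowest mutant. For all the rest of the 21 it was mutant 1, as for Ntng1 (5.37 FPKM), Plxna2 (3.60 FPKM) and Robo4 (4.46 FPKM). The stromal markers summed to 83.2 FPKM in control 2 and 119 FPKM in mutant 1 against 161 to 169 FPKM in the other 4 libraries. Mutant 1 was the lowest mutant for all 4 markers, which differed in how they stood to the controls. There Pdgfra (42.3 FPKM) and Pdgfrb (22.2 FPKM) were above every control. Foxd1 (34.7 FPKM) was inside the control range and Meis1 (19.5 FPKM) was below every control. The part of stromal content in these differences was not tested.

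**Figure D4:**
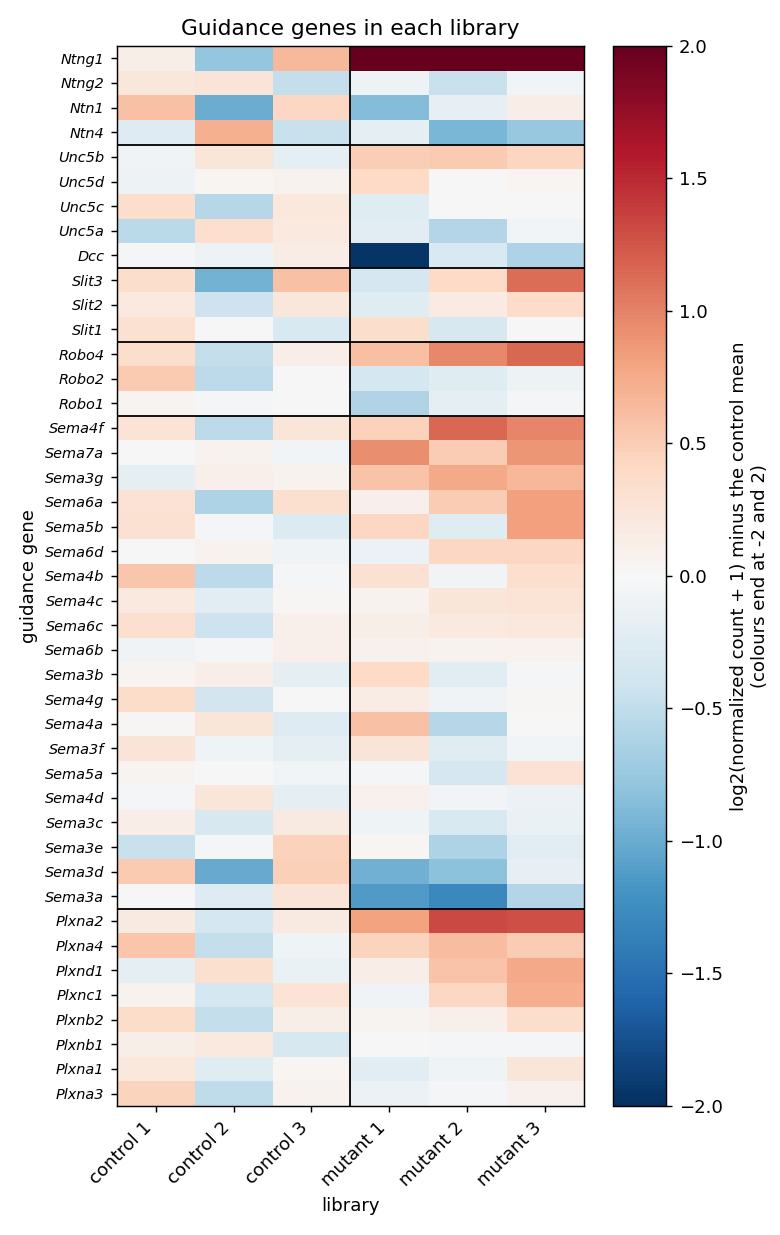
Each row is 1 of the 43 guidance genes tested and each column a library, coloured by its log2(normalized count + 1) with the control mean subtracted. Control 2 is the lowest of the 6 libraries for 21 of the 43 genes (48.8%), compared with 28.0% of all genes tested. Ntng1 is the row above the end of the scale in all 3 mutants.

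Genes that work with these ligands and receptors were counted from a separate list of 44, of which 43 were tested. Limma called none of them, beside the 0.307% called among all genes, while 6 passed an unadjusted p of 0.05 (4 higher and 2 lower), as did 9.63% of all genes. The authors' deposited table called 5 higher and 1 lower of that list, and 4.61% of all genes. The co-receptor genes Nrp1 and Nrp2 were among them. Nrp2 was at 3.45, 3.09 and 3.63 FPKM in controls and 4.48, 5.45 and 8.47 FPKM in mutants, with no overlap (log2 difference 0.81 with SE 0.22, adjusted p = 0.304 by limma). Nrp1 was at 19.7 ± 6.79 and 28.2 ± 4.16 FPKM, with overlapping groups (limma adjusted p = 0.519). Dpysl3, a collapsin response mediator that relays semaphorin signals to the cytoskeleton, was at 14.4 ± 2.58 and 27.7 ± 10.1 FPKM (limma adjusted p = 0.354). Mical2, an actin-oxidising enzyme of the family downstream of plexins, was at 4.20 ± 0.447 and 6.97 ± 2.34 FPKM (limma adjusted p = 0.403), and Flrt3, an adhesion protein that binds Unc5 receptors, at 6.59 ± 2.17 and 9.33 ± 2.10 FPKM (limma adjusted p = 0.558). The lower gene, the actin-binding gene Ablim3, was at 0.673 ± 0.183 and 0.232 ± 0.0438 FPKM (log2 difference -1.48 with SE 0.33, adjusted p = 0.151 by limma).

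Promoter windows from RefSeq (GRCm38.p6), of 250 bases before and 50 after each start, were matched by symbol for 37 of the 46 members, in 50 windows. The motif TGGGTGGTC, the sequence recognised by the Gli factors that carry Hedgehog signals to the genome, was searched on both strands. It was in 0 of the 50 member windows and in 0.253% of the 32851 windows of all genes. Its last 8 letters, GGGTGGTC, were in 0 of the 50 and in 0.807% of all. These letters were thus not found as exact matches in these windows, which says nothing about sites elsewhere. At the shares of all windows, most sets of 50 would also hold none. The search therefore cannot show that members have fewer sites. By no set rule, 3 of the 7 tested members whose mutants were all above controls were picked, Ntng1 not among them. The sequences before their starts are shown to let their base composition be compared, with CG pairs in capitals. Each runs 5′ to 3′ on the gene's strand. It stops before any GENCODE exon of the gene's coding transcripts that reaches into the 250 bases before the start. Exons lying wholly before those bases were not looked for. The stretches are Plxna2 (chr1:194619579-194619824, plus strand), Unc5b (chr10:60831582-60831831, minus strand) and Robo4 (chr9:37401722-37401896, plus strand). The Plxna2 stretch lies inside the GENCODE gene, which starts at 194618218.
Plxna2: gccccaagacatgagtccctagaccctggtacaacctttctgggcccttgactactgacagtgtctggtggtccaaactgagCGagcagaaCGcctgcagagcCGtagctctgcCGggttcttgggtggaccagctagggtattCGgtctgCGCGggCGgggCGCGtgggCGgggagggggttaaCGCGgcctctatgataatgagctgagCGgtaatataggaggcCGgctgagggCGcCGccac
Unc5b: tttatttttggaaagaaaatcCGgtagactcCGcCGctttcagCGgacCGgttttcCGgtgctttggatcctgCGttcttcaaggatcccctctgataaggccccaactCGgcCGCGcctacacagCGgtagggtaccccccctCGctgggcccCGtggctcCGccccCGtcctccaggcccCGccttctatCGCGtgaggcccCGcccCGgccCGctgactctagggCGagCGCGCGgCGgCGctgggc
Robo4: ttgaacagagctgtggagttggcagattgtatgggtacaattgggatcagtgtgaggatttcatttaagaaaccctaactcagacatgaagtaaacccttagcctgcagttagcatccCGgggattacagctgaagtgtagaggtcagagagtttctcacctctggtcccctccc
The Plxna2 stretch held 17 CG pairs in 246 bases and the Unc5b stretch 27 in 250 bases. As many or more were found in 22.9% and 8.56% of all windows at those lengths. The Robo4 stretch held 1 CG pair in 175 bases, and 28.7% of all windows had as few.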

How the data were processed

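Messenger RNA libraries of whole kidneys were sequenced, 3 of control and 3 of mutant embryos. Trim Galore, STAR 2.6.0c, HTSeq 0.6.1p2, DESeq2 and the genome build mm10 are named without roles in the submitters' processing notes. Strand use in counting was not given in the sources used here, and 12 members overlap another gene of the table (8 on the opposite strand). The deposited library columns hold FPKM made by the authors, a unit taken from the values. The deposited table also holds the authors' mean normalized signal, log2 fold change, test score, p-value and adjusted p-value, as the file headers name them. FPKM times mean signal over mean FPKM gave normalized counts, and all values above 0 were whole multiples of 1 read per library within 0.001. One read was worth 0.498 to 1.78 normalized counts.

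The main test was limma 3.58.1 (R 4.3.3, intensity trend, no covariate) on log2(normalized count + 1) of genes with at least 10 normalized counts in 3 libraries, with fold changes on that scale, which understates low genes. Alternatives were another pseudocount, scale, filter or normalization, library weights, a replicate block, a sex term and leaving out each library. Members given library by library were those called in limma or in the authors' table, those with an unadjusted p under 0.05 and no overlap, and the highest of each class. Plxnd1, Robo1, Sema3d and the lowest genes were added after their values were seen. Co-factors named were those called in the authors' table, with Lrrc4c added. Members and lists were chosen with earlier results of these data known. Gene positions came from GENCODE M21, with 99.8% of identifiers matched. Part of the neural marker list is not reported here, and its sum and counts were computed without it.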

Additional observations from a re-analysis of the deposited data

How the results depend on the processing

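The number of guidance genes called by limma was 1 (Ntng1) with all libraries. It was 8 with library weights (7 higher and 1 lower), 5 with the sex term and 0 with the replicate block. It lay between 0 and 4 when 1 library was left out: 0 without control 1 or any 1 of the mutants, 1 without control 3, and 4 without control 2 (Ntng1, Plxna2, Sema3a and Sema3d). Calls over all genes went from 52 to 462 with library weights, 1082 with the sex term and 17 with the replicate block, and were 9 (without mutant 2) to 158 (without control 2) when 1 library was left out. Co-factor calls went from 0 to 2 with library weights and 5 with the sex term. The sex term sets the mutants against control 2 alone, the only control with Ddx3y. With the replicate block Ntng1 had a limma adjusted p of 0.054. The deviations of same-numbered libraries correlated at 0.000811, -0.0981 and 0.309, the last being the highest of all 9 pairings of a control with a mutant. Since 1 of the 3 numbers had a correlation above 0.1, and not all, the numbers were not taken as pairs. Not every library correlated best with its own number (mutant 1 did with control 2, at 0.234).

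Of the values of 16 genes under 14 alternatives, 193 kept their direction and side of the threshold, 12 became calls, and 5, all of Ntng1, lost the call. Sema3d, described outside these 16 genes, also changed sign with the sex term (0.36). In 14 cases a gene with no call changed sign. The log2 difference with the sex term was 0.30 for Robo2, 0.69 for Ntn1, 0.48 for Unc5c and 0.073 for Sema3f. For Sema3f it was 0.048 with quantile normalization and 0.014 with library weights. Leaving out 1 library gave ranges that crossed 0, from -0.50 to 0.032 for Robo2, -0.37 to 0.091 for Unc5c, -0.14 to 0.12 for Sema3f, -0.075 to 0.76 for Slit3 and -0.069 to 0.35 for Plxnb2. The cause was not tested. Robo3 and Ntn5, with at most 9 reads per library, could not be compared at this depth, and Dcc rested on 2 to 14 reads.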
